A study of Mus musculus with 53 samples.

Results

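The genes that differed between mouse embryonic fibroblasts (MEFs) labelled as knocked out for Anp32e (KO) and wild-type MEFs (WT), both kept in the solvent DMSO, were described across the genome. The comparison took the 2 KO DMSO and the 2 WT DMSO RNA libraries, 4 of the 53 samples of the series. It covered the 16434 of 43432 listed genes that reached an FPKM (fragments per kilobase of gene, scaled to the depth of the library) of at least 1 in at least 2 libraries of the deposited table. The series asks how Anp32e loss and the DNA methyltransferase inhibitor decitabine (DAC) bear on the histone variant H2A.Z, and it holds 22 RNA libraries and 31 CUT&Tag samples. The CUT&Tag samples were not analysed here. Beside the DMSO libraries, use was made of 3 WT and 3 KO libraries treated with DAC and, from a second table, of 3 WT and 3 KO libraries given a control siRNA labelled NT. The labels give MEF as the only tissue and do not describe the knockout allele, the number of embryos or clones, their sex or their strain. They call the libraries biological replicates, but nothing says that they came from separate cultures, so each p-value measures the spread between these samples only.

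ANP32E is a small acidic protein that binds H2A.Z and strips it from nucleosomes. H2A.Z itself is placed near promoters and enhancers by the SRCAP and EP400 complexes, and it is known to mark genes that are active or poised. MEFs are a mixed culture grown out of whole embryo carcasses, so they hold connective-tissue cells from limb, trunk and body wall, each of which keeps the positional genes of its origin.

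Library totals recovered from the deposited values were 30675011 and 31472431 reads in WT DMSO and 27503472 and 31041159 in KO DMSO, so that 1 read in a gene of 1 kb was worth 0.0318 to 0.0364 FPKM. Across the 16434 genes, log2 values correlated at 0.9853 between the WT libraries, at 0.9837 between the KO libraries and at 0.888 to 0.8935 between genotypes, where genes are not independent replicates. Both KO DMSO libraries stood apart from all others of their table on the first principal component, which held 46.7% of the variance. They lay at 66.8 and 66.2, and the 8 other libraries, KO DAC included, lay between −29.9 and −1.9. Every gene was tested with limma on log2 of the FPKM plus 1, and p-values were adjusted by Benjamini-Hochberg over all 16434 genes. The fit took all 10 libraries of the table, so the DAC libraries also entered the estimate of the spread. Below, "rose" and "fell" are used only for an adjusted p under 0.05, differences are KO minus WT on that log2 scale with their standard error, and values per library are FPKM in replicate 1 and then replicate 2. The added 1 makes the difference of a gene with low values smaller than its true fold change. With 2 libraries per group an exact permutation test of a single gene cannot reach the threshold, so no such test is given.

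Anp32e (ENSMUSG00000015749, chromosome 3, 95929245 to 95947387 in mm10) was at 14.5 and 14.6 FPKM in WT and 5.31 and 4.87 in KO, a difference of −1.35 ± 0.10, adjusted p = 1.1e-05. The KO libraries thus still held Anp32e transcript, and whether any protein was made was not tested. Both KO values were lower than both WT values, which is the direction the labels give. The family members Anp32a and Anp32b went the opposite way. Anp32b, which encodes another acidic histone-binding protein, was at 78.02 and 66.7 FPKM in WT and 94.3 and 94.5 in KO and rose by 0.38 ± 0.08, adjusted p = 0.0056. Anp32a, its close relative, was at 21.3 and 23.3 FPKM in WT and 27.7 and 27.97 in KO and rose by 0.31 ± 0.08, adjusted p = 0.013. Of the 22 genes listed for the ANP32 family and for H2A.Z deposition and removal, 3 rose, 2 fell and 17 did not pass. Over all genes tested 42.4% passed, 19.6% as higher and 22.9% as lower. The members that passed beside those 3 were Actr6 and Ep400. Actr6, an actin-related subunit of the SRCAP complex, fell from 3.81 and 4.1 FPKM in WT to 2.26 and 2.59 in KO (−0.53 ± 0.13, adjusted p = 0.0091). Ep400, the ATPase of the other exchange complex, rose by 0.18 ± 0.05, adjusted p = 0.023. The genes of H2A.Z itself did not pass, and H2afz was at 103 and 99.2 FPKM in WT and 81.9 and 88.5 in KO (−0.25 ± 0.18, adjusted p = 0.29). Its paralogue H2afv gave a difference of 0.18 ± 0.11, adjusted p = 0.2, with values of 25.1 and 28.9 FPKM in WT against 31.6 and 29.9 in KO. The call of Anp32a was lost without WT replicate 1 or either KO replicate, and that of Actr6 without WT replicate 2 or KO replicate 1. That of Ep400 was lost without either WT replicate or KO replicate 2. The SRCAP ATPase gene Srcap did not pass either, at 30.8 and 31.3 FPKM in WT and 29.99 and 30.5 in KO (−0.04 ± 0.06, adjusted p = 0.62).

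In all, 3219 genes rose in KO and 3757 fell, together 6976 of 16434 (42.4%), and 8192 had an unadjusted p under 0.05. The groups did not overlap for 12301 genes (74.9% of those tested), among them all 6976 that passed. Rises and falls were not alike in size. The median size of the log2 difference among the genes that passed was 0.61. At least 2-fold rises numbered 997 and falls 716, at least 4-fold 325 and 101, at least 8-fold 116 and 14, and at least 32-fold 19 and 1. There were 64 genes under 0.1 FPKM in WT and at 5 or more in KO, and 1 gene the other way round. Leaving out any 1 of the 4 libraries gave 2434 to 2548 higher and 2740 to 2912 lower genes.

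**Figure D1:**
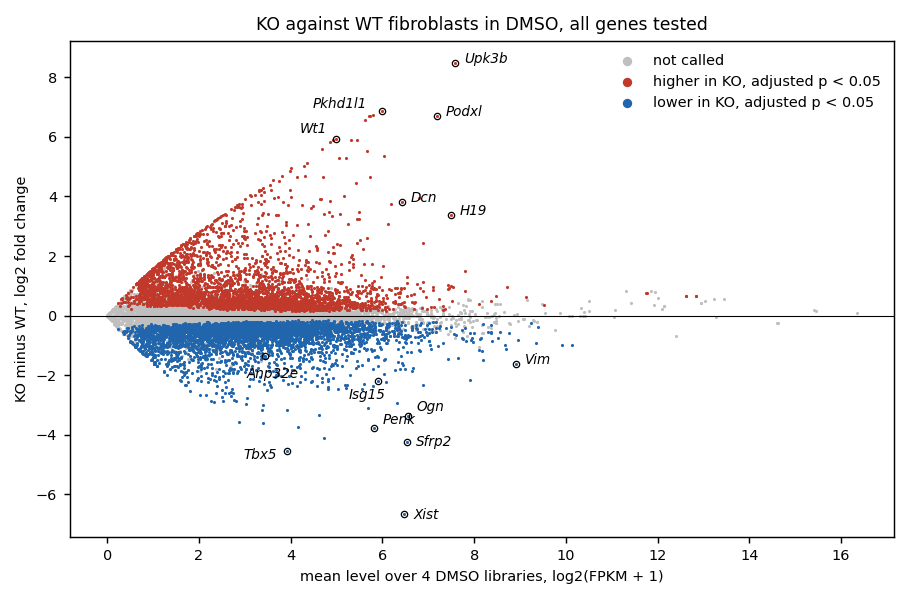
Difference between KO and WT in DMSO (log2 scale, vertical axis) against the mean log2(FPKM + 1) of the 4 DMSO libraries (horizontal axis), 1 point per gene tested, with genes that passed an adjusted p of 0.05 in colour. The largest rises reach further from 0 than the largest falls, with Upk3b at 8.47 and Xist at −6.66.

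The 12 largest rises were taken among genes with a mean of at least 5 FPKM in KO, without predicted genes, clones, small RNAs and pseudogenes. They held many genes known for mesothelium, the sheet of cells that lines the body cavities and covers the organs in them. Upk3b, a uroplakin that is a standard mesothelial marker, rose from 0.0556 and 0.108 FPKM in WT to 372 and 396 in KO (8.47 ± 0.44, adjusted p = 1.3e-06). Pkhd1l1, a large membrane protein related to fibrocystin, rose from 0.0613 and 0.0922 FPKM in WT to 128 and 121 in KO (6.86 ± 0.15, adjusted p = 1.2e-08). Upk1b, the tetraspanin partner of the uroplakins, rose from 0.0369 and 0 FPKM in WT to 106 and 111 in KO (6.75 ± 0.17, adjusted p = 2.3e-08). Each of these genes was close to absent in both WT libraries and among the well-expressed genes in both KO libraries. Podxl, the sialomucin podocalyxin, rose from 1.62 and 1.86 FPKM in WT to 290.1 and 284 in KO (6.72 ± 0.16, adjusted p = 2.3e-08). Wt1, the transcription factor of the coelomic lining, rose from 0.0105 and 0.0205 FPKM in WT to 60.2 and 62.7 in KO (5.94 ± 0.12, adjusted p = 1.2e-08). Amhr2, the receptor of anti-Müllerian hormone, which is expressed in coelomic epithelium and gonadal mesenchyme, rose from 0.358 and 0.476 FPKM in WT to 84.3 and 84.01 in KO (5.91 ± 0.16, adjusted p = 4.7e-08). Gpm6a, a membrane glycoprotein, and Lrrn4 had 0 in each WT library, and stood at 104.5 and 99.8 FPKM and 54.99 and 61.5 FPKM in KO. The other genes of the 12 have known roles in many tissues. Myrf, a membrane-bound transcription factor, rose from 0.278 and 0.334 FPKM in WT to 74.2 and 79.96 in KO (5.9). Plxna4, a semaphorin receptor, rose from 0.0506 and 0.0345 FPKM in WT to 49.2 and 49.8 in KO (5.6). Smpd3, a neutral sphingomyelinase, rose from 1.31 and 0.994 FPKM in WT to 97.9 and 97.1 in KO (5.52). Isyna1, the enzyme that makes inositol phosphate from glucose phosphate, rose from 2.15 and 2.01 FPKM in WT to 127 and 126 in KO (5.37).

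Among the 12 largest falls, chosen by the same rule, were several secreted products of fibroblasts. Sfrp2, a secreted Wnt regulator, fell from 167 and 182 FPKM in WT to 8.24 and 8.2 in KO (−4.25 ± 0.15, adjusted p = 1.7e-07). Ogn, the small proteoglycan osteoglycin, fell from 156 and 184 FPKM in WT to 16.1 and 14.8 in KO (−3.37 ± 0.11, adjusted p = 1.1e-07). Penk, which encodes the precursor of the enkephalins, fell from 86.8 and 121 FPKM in WT to 7.52 and 5.84 in KO (−3.76 ± 0.18, adjusted p = 8e-07). WT values were high for all 3 and differed between the 2 WT libraries by less than they differed from KO. Npnt, the matrix protein nephronectin, fell from 42.02 and 45.97 FPKM in WT to 3.44 and 3.4 in KO (−3.35 ± 0.06, adjusted p = 1.1e-08). Ptx3, a soluble pattern receptor, fell from 24.1 and 28.1 FPKM in WT to 2.06 and 1.91 in KO (−3.18 ± 0.13, adjusted p = 4.2e-07). Thbd, thrombomodulin, fell from 27.3 and 37.2 FPKM in WT to 1.48 and 1.44 in KO (−3.74). The carbonyl reductase gene Cbr2 fell from 50.2 and 47.1 FPKM in WT to 1.81 and 1.99 in KO (−4.1). Sobp fell from 11.3 and 13.7 FPKM in WT to 0.118 and 0.117 in KO (−3.59). Slc24a3, a sodium, calcium and potassium exchanger, fell from 17.9 and 17.7 FPKM in WT to 1.15 and 1.02 in KO (−3.17). The remaining falls were Tbx5 and Xist, given further on, and Rps4l, a copy of a ribosomal protein gene at 17.7 and 19.071 FPKM in WT and 0.771 and 0.41 in KO whose reads may be shared with other copies. Among the most abundant genes that passed, the 4 highest that rose were copies of the U3 small nucleolar RNA (Rnu3b1 from 4869 and 4841 FPKM in WT to 7980.0 and 7461 in KO), which are near-identical and therefore uncertain one by one, and the call was lost when any 1 library was left out. The 4 highest that fell included Col1a1, Fn1 and Lgals1, which encodes the lectin galectin-1 and stood at 1316 and 1254 FPKM in WT and 654 and 650.0 in KO (−0.98 ± 0.16, adjusted p = 0.0012).

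**Figure D2:**
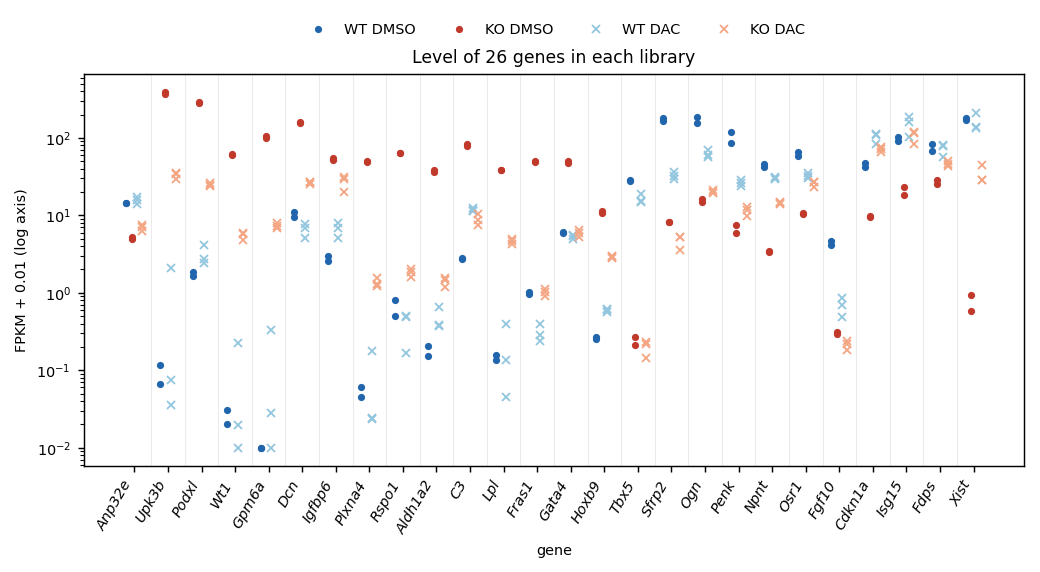
FPKM plus 0.01 on a log axis for 26 named genes, with filled points for the WT and KO DMSO libraries and crosses for the DAC libraries of the same genotypes. In each gene that passed, both KO DMSO points lie on one side of both WT DMSO points, with the widest gaps at Upk3b, Wt1, Gpm6a and Plxna4.

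Markers of cell types were then read as whole lists. Each list count in DMSO below is to be set beside 19.6% higher and 22.9% lower over all genes tested. Wherever none of a list is said to have risen, or to have fallen, in DMSO, none had an unadjusted p under 0.05 in that direction with limma, and limma-voom on recovered reads called none either, apart from germline genes, given further on. Of 24 mesothelial markers 22 were tested, and 20 rose, none fell and 2 (Krt8 and Krt19) did not pass. The summed level of the list was 39.8 and 35.9 FPKM in WT and 1448 and 1482 in KO, while it was 69.3 to 83.6 in the WT DAC libraries and 185.0 to 211 in the KO DAC libraries. Only 5 of the 22 reached 1 FPKM in both WT libraries, against 21 in both KO libraries, so most entered the test through the group where they were high and the count is given as a description. Msln, the gene of mesothelin, was present in both genotypes, at 6.8 and 5.02 FPKM in WT and 19.95 and 23.2 in KO (1.72 ± 0.18, adjusted p = 8.7e-05). Cdh3, P-cadherin, was also present in both, at 10.2 and 10.5 FPKM in WT and 46.1 and 49.9 in KO (2.11 ± 0.08, adjusted p = 2.4e-07). The simple keratin Krt18 rose from 0.466 and 0.59 FPKM in WT to 21.6 and 23.3 in KO (3.94 ± 0.22, adjusted p = 1.7e-06), while its usual partner Krt8 was at 0 and 0.141 FPKM in WT and 0.161 and 0.286 in KO (0.19 ± 0.16, adjusted p = 0.38). Krt7 rose from 0.231 and 0.0901 FPKM in WT to 8.56 and 9.65 in KO (3.12 ± 0.12, adjusted p = 2.8e-07). Krt19 was at 3.13 and 2.31 FPKM in WT and 1.98 and 1.96 in KO (−0.32 ± 0.29, adjusted p = 0.42). In bulk RNA, more cells of a type and more RNA per cell cannot be told apart. Bnc1, a zinc-finger protein of lining epithelia, rose from 0.014 and 0 FPKM in WT to 21.2 and 24.1 in KO (4.55). The polarity gene Crb2 rose from 0.448 and 0.493 FPKM in WT to 36.2 and 38.1 in KO (4.7). The tight-junction gene Cldn15 rose from 0.553 and 0.673 FPKM in WT to 28.6 and 29.6 in KO (4.22). Ildr2, a membrane protein of the immunoglobulin superfamily, rose from 0.0514 and 0.077 FPKM in WT to 26.8 and 25.5 in KO (4.67). Slpi did not reach the filter, and Muc16 was not analysed here.

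Fibroblast markers were abundant in all 4 libraries, as the MEF label implies, and moved down more often than up. Of 19 members 16 were tested, 10 fell, 2 rose and 4 did not pass, with a median of −0.46 against −0.037 over all genes. The summed level was 3538 and 3649.8 FPKM in WT and 2164 and 2198 in KO. Vim, the intermediate filament vimentin, fell from 729.6 and 725 FPKM in WT to 236 and 240.2 in KO (−1.61 ± 0.10, adjusted p = 4.8e-06). S100a4, a calcium-binding protein of motile fibroblasts, fell from 120.3 and 122 FPKM in WT to 40.7 and 39.8 in KO (−1.56 ± 0.17, adjusted p = 9.4e-05). The collagen gene Col1a1 fell from 1439.5 and 1529 FPKM in WT to 739 and 766 in KO (−0.98 ± 0.11, adjusted p = 0.00014). Fibronectin, Fn1, fell from 762 and 754 FPKM in WT to 584 and 579 in KO (−0.38 ± 0.07, adjusted p = 0.0019). Pdgfrb, the beta receptor for platelet-derived growth factor, fell from 65.3 and 71.4 FPKM in WT to 28.6 and 31.3 in KO (−1.17 ± 0.11, adjusted p = 4.9e-05). Both members that rose were abundant. Dcn, the proteoglycan decorin, rose from 9.54 and 10.99 FPKM in WT to 161 and 156 in KO (3.83 ± 0.14, adjusted p = 2.2e-07). The surface antigen Thy1 rose from 26.9 and 30.7 FPKM in WT to 43.7 and 46.9 in KO (0.64 ± 0.09, adjusted p = 0.00051). The collagen gene Col3a1 did not pass, at 96.8 and 117 FPKM in WT and 111 and 112 in KO (0.07 ± 0.14, adjusted p = 0.74). The surface antigen gene Ly6a did not pass either, at 44.3 and 31.9 FPKM in WT and 40.6 and 37.3 in KO (0.05 ± 0.16, adjusted p = 0.85).

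Many markers of other lineages were absent or under the filter, and those tested had calls in both directions. Of 14 epithelial markers 8 were not tested, Epcam stood at 0 in WT and Krt5 at 0 in all 4 libraries, and the summed level was 4.27 and 5.46 FPKM in WT and 14.1 and 14.8 in KO. Of the 6 tested 3 rose, 1 fell and 2 did not pass. Cdh1, E-cadherin, rose from 0.0713 and 0.264 FPKM in WT to 3.31 and 3.37 in KO (1.9 ± 0.11, adjusted p = 2.8e-06), and Esrp2, a splicing factor of epithelia, from 1.07 and 1.67 FPKM in WT to 5.18 and 5.3 in KO (1.41 ± 0.14, adjusted p = 6e-05). Trp63, a factor of stratified epithelia, fell from 2.04 and 1.95 FPKM in WT to 1.07 and 1.08 in KO (−0.53 ± 0.12, adjusted p = 0.0066). Of 12 endothelial markers 9 were not tested, and Cdh5, Tie1 and Sox17 were listed at 0 in all 4 libraries. Of the 3 tested 1 rose and 2 fell, and the list summed to 12.5 and 11.8 FPKM in WT and 7.67 and 7.36 in KO. Erg, an ETS factor of endothelium, fell from 6.46 and 6.26 FPKM in WT to 2.63 and 2.55 in KO (−1.04 ± 0.11, adjusted p = 8e-05), while the falls were 1 when any 1 library was left out and no member rose without KO replicate 1. Of 12 macrophage and blood markers 10 were not tested, with Adgre1 and Tyrobp at 0 in all 4, and Csf1r rose from 0.227 and 0.371 FPKM in WT to 1.38 and 1.85 in KO (1.0 ± 0.14, adjusted p = 0.00044). The other tested member did not pass, although it fell without replicate 1 of either genotype and with limma-voom. Of 9 skeletal muscle markers only Des, the intermediate filament desmin, was tested, and it rose from 0.139 and 0.118 FPKM in WT to 4.25 and 4.64 in KO (2.27 ± 0.11, adjusted p = 7.5e-07), with Myod1, Myf5 and Myh3 at 0 in all 4. Of 5 tested neural and glial markers 2 rose and 2 fell, the falls being 1 without WT replicate 2 or KO replicate 1. Ncam1, the neural cell adhesion molecule, rose from 9.64 and 9.69 FPKM in WT to 31.03 and 30.8 in KO (1.58 ± 0.06, adjusted p = 2.8e-07). Map2, a microtubule-binding protein of neurons, fell from 7.18 and 7.67 FPKM in WT to 3.46 and 3.3 in KO (−0.94 ± 0.09, adjusted p = 4.2e-05), and Sox10, Stmn2, Elavl3 and Gfap did not reach the filter. The part of any of these cell types in other results was not tested.

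Genes of the smooth-muscle contractile apparatus are switched on when cultured fibroblasts turn into myofibroblasts. Of 12 tested, 6 fell, 3 rose and 3 did not pass, and the summed level was 566 and 497 FPKM in WT and 295 and 298 in KO. Acta2, smooth-muscle actin, fell from 217 and 173 FPKM in WT to 37.3 and 38.8 in KO (−2.32 ± 0.19, adjusted p = 1.8e-05). The regulatory light chain gene Myl9 fell from 105.0 and 102 FPKM in WT to 24.6 and 27.4 in KO (−1.96 ± 0.10, adjusted p = 9.1e-07). The actin-binding Lmod1 fell from 2.68 and 3.5 FPKM in WT to 0.405 and 0.539 in KO (−1.47 ± 0.15, adjusted p = 8e-05). Calponin, Cnn1, fell from 8.8 and 6.68 FPKM in WT to 3.7 and 3.44 in KO (−0.92 ± 0.13, adjusted p = 0.0005). Smtn, smoothelin, rose from 10.7 and 10.8 FPKM in WT to 20.98 and 22.4 in KO (0.94 ± 0.14, adjusted p = 0.00082). Tagln was at 23.2 and 19.112 FPKM in WT and 13.5 and 13.5 in KO and did not pass (−0.61 ± 0.25, adjusted p = 0.084).

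Hox genes, which record position along the body and limb axes, changed by cluster. In cluster A 7 of 8 tested members fell and 1 rose, and in cluster D 4 of 6 fell and none rose. In clusters B and C all 5 tested members of each rose. Posterior genes, known from the distal limb, had the highest WT levels of their clusters. Hoxd13, needed for digits, fell from 129 and 128 FPKM in WT to 43.96 and 40.7 in KO (−1.58 ± 0.10, adjusted p = 3.4e-06). Hoxd11 fell from 20.7 and 19.7 FPKM in WT to 7.23 and 6.66 in KO (−1.41 ± 0.07, adjusted p = 7.8e-07). Hoxd10 fell from 26.8 and 27.2 FPKM in WT to 10.7 and 9.86 in KO (−1.31 ± 0.14, adjusted p = 0.00011). Hoxa13, the paralogue of Hoxd13, fell from 18.6 and 19.7 FPKM in WT to 6.55 and 6.27 in KO (−1.44 ± 0.11, adjusted p = 1.3e-05). Hoxa10 fell from 12.8 and 12.7 FPKM in WT to 2.99 and 2.88 in KO (−1.8 ± 0.11, adjusted p = 3e-06). The single riser of cluster A was the anterior Hoxa4, at 0.327 and 0.678 FPKM in WT and 0.935 and 0.97 in KO (0.39 ± 0.12, adjusted p = 0.034), which did not pass without WT replicate 1 or either KO replicate. In cluster D, Hoxd12 did not pass, at 5.25 and 5.17 FPKM in WT and 4.02 and 4.12 in KO (−0.29 ± 0.12, adjusted p = 0.078), and neither did Hoxd8, at 5.71 and 4.64 FPKM in WT and 4.82 and 4.58 in KO (−0.11 ± 0.11, adjusted p = 0.46).

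Clusters B and C showed the opposite layout. All 9 cluster C genes, tested or not, were at 0 in WT, and the cluster summed to 15.9 and 16.7 FPKM in KO. Hoxc6 stood at 3.2 and 4.28 FPKM, Hoxc9 at 3.35 and 3.16 and Hoxc10 at 1.92 and 2.72. Hoxb9 rose from 0.241 and 0.259 FPKM in WT to 11.3 and 10.8 in KO (3.26 ± 0.08, adjusted p = 2.3e-08). Hoxb6 rose from 0.232 and 0.21 FPKM in WT to 3.98 and 4.002 in KO (2.03 ± 0.11, adjusted p = 1.9e-06), and Hoxb7 was listed at 0 in WT and stood at 2.35 and 2.09 in KO. No tested member of B or C reached 1 FPKM in a WT library, so each entered the test through KO libraries, and the counts of 5 of 5 are a description. With no filter 8 cluster B genes passed, and with a filter at 5 FPKM only Hoxb9 was tested there and no cluster C gene.

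**Figure D3:**
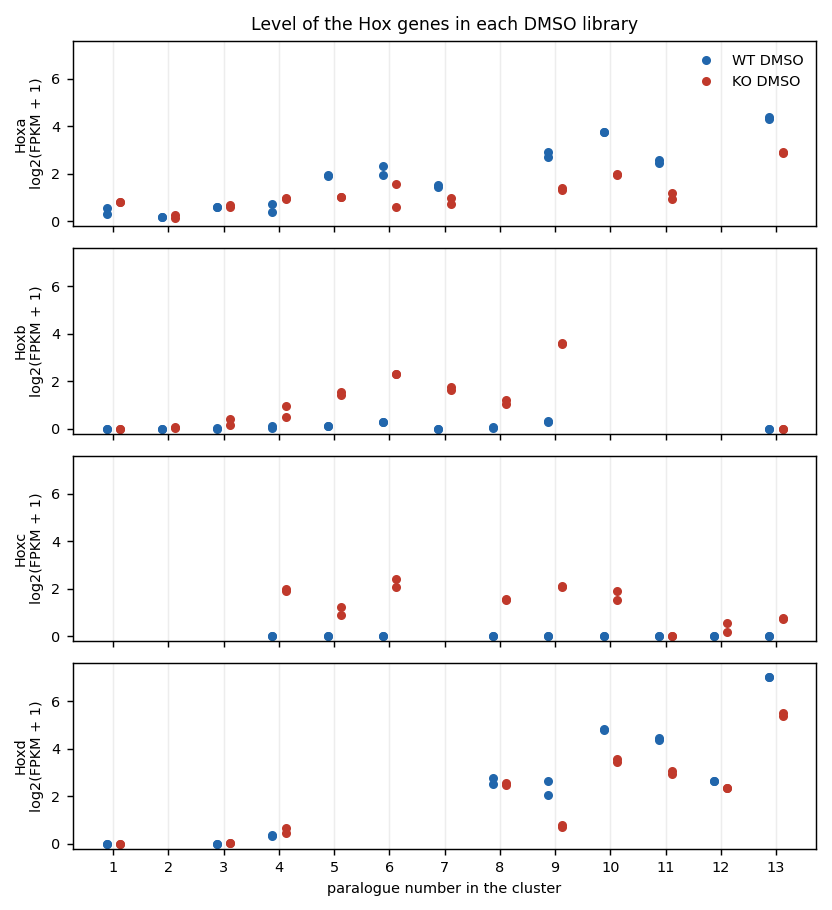
Level of each Hox gene (log2(FPKM + 1), vertical axis) by cluster and paralogue number (horizontal axis) in the 2 WT and 2 KO DMSO libraries. WT points exceed KO points at the posterior end of clusters A and D, and in clusters B and C the KO points lie above the WT points wherever a gene was detected.

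Other positional transcription factors had members of both signs. Of 54 listed genes of limb and body wall 38 were tested, of which 24 fell, 11 rose and 3 did not pass (median −0.93). Tbx5, which specifies the forelimb, fell from 27.4 and 28.6 FPKM in WT to 0.258 and 0.204 in KO (−4.56 ± 0.12, adjusted p = 2.6e-08). Tbx4, which acts in the hindlimb, rose from 0.288 and 0.336 FPKM in WT to 9.11 and 9.86 in KO (3.0 ± 0.11, adjusted p = 1.7e-07). These paralogues sat at opposite ends of the list. Sall1, a zinc-finger gene of limb and kidney, fell from 7.45 and 8.14 FPKM in WT to 0.18 and 0.172 in KO (−2.9 ± 0.10, adjusted p = 1.1e-07). Msx2, a homeobox gene of limb ectoderm and mesenchyme, fell from 7.22 and 6.11 FPKM in WT to 0.277 and 0.128 in KO (−2.67 ± 0.16, adjusted p = 2.7e-06). Osr1, a factor of intermediate and lateral mesoderm, fell from 58.2 and 64.9 FPKM in WT to 10.5 and 10.6 in KO (−2.43 ± 0.09, adjusted p = 2.2e-07). Foxd1 fell from 4.86 and 3.99 FPKM in WT to 0.118 and 0.0523 in KO (−2.32). The limb LIM-homeobox gene Lhx9 fell from 8.67 and 9.5 FPKM in WT to 1.28 and 1.25 in KO (−2.15). Tbx15, active in trunk and limb mesenchyme, was high in both genotypes, at 64.5 and 66.3 FPKM in WT and 30.3 and 30.04 in KO (−1.09 ± 0.08, adjusted p = 1.3e-05). Prrx2 fell from 28.99 and 31.1 FPKM in WT to 6.73 and 8.08 in KO (−1.89). Foxc1 fell from 23.2 and 25.6 FPKM in WT to 6.28 and 5.95 in KO (−1.84). Dlx5 fell from 3.05 and 2.41 FPKM in WT to 0 and 0.0453 in KO (−1.86).

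Risers among these factors included genes of visceral mesoderm. Gata4, a factor of heart, gonad and visceral mesenchyme, rose from 6.1 and 5.84 FPKM in WT to 49.6 and 47.6 in KO (2.83 ± 0.09, adjusted p = 9.9e-08). Its relative Gata6 rose from 11.5 and 13.3 FPKM in WT to 70.4 and 74.1 in KO (2.45 ± 0.09, adjusted p = 1.9e-07). Emx2, needed for kidney and gonad, rose from 1.93 and 2.75 FPKM in WT to 9.17 and 10.01 in KO (1.67 ± 0.12, adjusted p = 8.6e-06). The TALE homeobox gene Meis1, a Hox partner, rose from 2.15 and 2.16 FPKM in WT to 7.88 and 7.97 in KO (1.5 ± 0.08, adjusted p = 1.3e-06). Meis2 rose from 6.29 and 7.02 FPKM in WT to 13.2 and 13.6 in KO (0.91 ± 0.08, adjusted p = 4.1e-05). Lmx1b, a dorsal limb factor, rose from 0.307 and 0.56 FPKM in WT to 3.86 and 3.29 in KO (1.68 ± 0.12, adjusted p = 6.8e-06). Hand2 was listed at 0 in WT and stood at 1.55 and 2.13 FPKM in KO.

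Extracellular matrix genes fell more often than they rose, and each class had exceptions. Of 20 tested genes for fibrillar collagens and their processing, 12 fell, 2 rose (1 without WT replicate 1 or either KO replicate) and 6 did not pass, and the list summed to 2509 and 2661 FPKM in WT and 1398 and 1448 in KO. Col5a2, a minor chain that nucleates fibrils, fell from 139.5 and 139 FPKM in WT to 40.7 and 39.1 in KO (−1.78 ± 0.07, adjusted p = 2.8e-07). Col5a1 fell from 94.6 and 99.7 FPKM in WT to 33.002 and 35.8 in KO (−1.47 ± 0.13, adjusted p = 2.9e-05). Col11a1 fell from 11.6 and 13.5 FPKM in WT to 2.99 and 3.34 in KO (−1.7 ± 0.11, adjusted p = 4.9e-06). Pcolce, the enhancer of procollagen cleavage, fell from 172 and 193 FPKM in WT to 79.8 and 87.4 in KO (−1.12 ± 0.14, adjusted p = 0.00022). Serpinh1, the collagen chaperone, fell from 268 and 263 FPKM in WT to 154 and 158 in KO (−0.76 ± 0.10, adjusted p = 0.00028). Plod2, a lysyl hydroxylase, rose from 6.81 and 6.64 FPKM in WT to 13.5 and 14.6 in KO (0.96 ± 0.08, adjusted p = 1.8e-05). Col1a2, the partner chain of Col1a1, was at 121 and 132 FPKM in WT and 106 and 112 in KO and did not pass (−0.21 ± 0.10, adjusted p = 0.12).

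Small leucine-rich proteoglycans, which bind fibrils, had 9 of 10 tested members lower and 1 higher (median −1.5). Aspn, asporin, fell from 59.96 and 70.8 FPKM in WT to 20.01 and 17.3 in KO (−1.75 ± 0.14, adjusted p = 1.9e-05). Fmod, fibromodulin, fell from 26.1 and 35.1 FPKM in WT to 9.85 and 9.72 in KO (−1.53 ± 0.15, adjusted p = 6.6e-05). Omd, osteomodulin, fell from 13.8 and 13.7 FPKM in WT to 2.34 and 2.42 in KO (−2.13 ± 0.22, adjusted p = 7.2e-05). Bgn, biglycan, the most abundant of the class, fell from 616 and 648 FPKM in WT to 357 and 358 in KO (−0.82 ± 0.11, adjusted p = 0.00049). The exception was Dcn, given above, which rose while the rest of the class fell.

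Basement-membrane genes gave 12 lower, 5 higher and 4 without a call among 21 tested. The main chains of type IV collagen fell. Col4a1 fell from 109 and 111 FPKM in WT to 64.4 and 64.8 in KO (−0.76 ± 0.05, adjusted p = 7.8e-06). Col4a2 fell from 78.3 and 79.6 FPKM in WT to 46.1 and 44.5 in KO (−0.79 ± 0.07, adjusted p = 2.1e-05). The linker Nid1 fell from 75.1 and 77.8 FPKM in WT to 42.1 and 40.98 in KO (−0.86 ± 0.06, adjusted p = 4.6e-06). The laminin chain Lamb2 fell from 80.8 and 89.9 FPKM in WT to 36.8 and 40.4 in KO (−1.13 ± 0.13, adjusted p = 0.00014). The largest rise was that of Fras1, which encodes an anchor between epithelium and mesenchyme, at 0.963 and 1.01 FPKM in WT and 48.7 and 50.4 in KO (4.67 ± 0.09, adjusted p = 1.2e-08). Col4a6 rose from 0.274 and 0.335 FPKM in WT to 7.9 and 8.2 in KO (2.79 ± 0.09, adjusted p = 1.1e-07). Lamc3 rose from 0.337 and 0.459 FPKM in WT to 6.9 and 6.97 in KO (2.51 ± 0.10, adjusted p = 2.8e-07). Col4a5 rose from 9.32 and 10.7 FPKM in WT to 16.4 and 15.99 in KO (0.65 ± 0.08, adjusted p = 0.00029), so chains of type IV collagen were found on both sides.

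Elastic-fibre genes and lysyl oxidases were split, with 10 lower, 8 higher and 3 without a call of 21. Over all genes 22.9% were lower and 19.6% higher. Fbln5, which guides elastin assembly, fell from 79.8 and 77.9 FPKM in WT to 15.3 and 15.5 in KO (−2.28 ± 0.05, adjusted p = 1.2e-08). Fbn2, fibrillin-2, fell from 36.9 and 37.6 FPKM in WT to 8.4 and 8.79 in KO (−2.0 ± 0.07, adjusted p = 1.7e-07). The cross-linking enzyme gene Lox fell from 379 and 385 FPKM in WT to 169.8 and 170.4 in KO (−1.16 ± 0.06, adjusted p = 1.1e-06). Eln, elastin itself, rose from 4.01 and 5.29 FPKM in WT to 19.8 and 19.8 in KO (1.89 ± 0.15, adjusted p = 1.7e-05). Loxl2 rose from 5.56 and 5.8 FPKM in WT to 17.7 and 18.2 in KO (1.5 ± 0.06, adjusted p = 3.9e-07). Ltbp4, a carrier of latent TGF-beta, rose from 10.5 and 12.2 FPKM in WT to 22.3 and 24.03 in KO (0.97 ± 0.08, adjusted p = 1.9e-05). The 8 rises became 5 without WT replicate 1 or without either KO replicate.

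Matricellular proteins sit in the matrix and signal to cells. Their genes gave 8 lower and 5 higher of 16, beside 22.9% and 19.6% over all genes. Thbs1, thrombospondin-1, fell from 270.1 and 236 FPKM in WT to 92.6 and 90.6 in KO (−1.45 ± 0.09, adjusted p = 2.9e-06). Thbs2 rose from 9.77 and 10.1 FPKM in WT to 53.7 and 56.9 in KO (2.36 ± 0.08, adjusted p = 1.7e-07), so the 2 closest relatives moved in opposite directions. Ccn3 fell from 62.6 and 64.7 FPKM in WT to 23.1 and 20.5 in KO (−1.51 ± 0.11, adjusted p = 1.2e-05). Ccn2, connective tissue growth factor, rose from 10.9 and 8.16 FPKM in WT to 45.1 and 44.2 in KO (2.13 ± 0.13, adjusted p = 2.8e-06). Vcan, the large proteoglycan versican, fell from 72.2 and 85.1 FPKM in WT to 13.7 and 12.9 in KO (−2.47 ± 0.08, adjusted p = 1.2e-07). Among matrix proteases and inhibitors 9 of 16 fell and 4 rose. Mmp14, the membrane-bound collagenase, fell from 284 and 297 FPKM in WT to 99.1 and 115 in KO (−1.44 ± 0.12, adjusted p = 2.3e-05). Timp2 fell from 321 and 330.5 FPKM in WT to 173 and 178 in KO (−0.89 ± 0.05, adjusted p = 2.7e-06). Adamts5, an aggrecanase, fell from 20.4 and 22.2 FPKM in WT to 5.66 and 5.56 in KO (−1.75 ± 0.08, adjusted p = 8e-07). Mmp23 rose from 2.19 and 2.19 FPKM in WT to 25.4 and 25.6 in KO (3.06 ± 0.17, adjusted p = 2.1e-06) and Timp3 from 26.8 and 27.4 FPKM in WT to 44.1 and 41.3 in KO (0.64 ± 0.06, adjusted p = 4.2e-05).

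Of 16 tested cell-cell junction genes 8 rose, 4 fell and 4 did not pass. All 16 reached 1 FPKM in both KO libraries and 11 in both WT libraries, so some entered the test through KO, and with a filter at 5 FPKM 5 of 12 rose and 4 fell. Jup, plakoglobin, rose from 15.9 and 13.3 FPKM in WT to 38.3 and 40.8 in KO (1.38 ± 0.09, adjusted p = 3.7e-06). The tight-junction scaffold gene Tjp1 rose from 15.4 and 15.95 FPKM in WT to 24.9 and 25.4 in KO (0.65 ± 0.06, adjusted p = 4.8e-05). Dsp, the desmosomal plaque protein, rose from 0.129 and 0.0792 FPKM in WT to 1.41 and 1.61 in KO (1.19 ± 0.11, adjusted p = 3.8e-05). The mesenchymal cadherin gene Cdh11 fell, at 43.1 and 52.6 FPKM in WT and 14.6 and 14.5 in KO (−1.64 ± 0.10, adjusted p = 4e-06), as did Cdh13 at 10.1 and 10.3 FPKM in WT and 1.82 and 2.06 in KO (−1.94 ± 0.08, adjusted p = 3.5e-07). Cdh2, N-cadherin, was at 20.8 and 17.1 FPKM in WT and 23.5 and 22.3 in KO and did not pass (0.26 ± 0.10, adjusted p = 0.068). Of 9 transcription factors of epithelial-mesenchymal transition 7 fell and none rose, although 1 rose without WT replicate 1. Twist1 fell from 39.7 and 39.99 FPKM in WT to 17.4 and 20.6 in KO (−1.04 ± 0.15, adjusted p = 0.00051). Snai2 fell from 59.4 and 60.6 FPKM in WT to 30.1 and 28.3 in KO (−1.01 ± 0.17, adjusted p = 0.0014). Zeb1 fell from 17.6 and 19.2 FPKM in WT to 11.8 and 10.99 in KO (−0.65 ± 0.08, adjusted p = 0.0002). Snai1 did not pass, at 23.2 and 17.3 FPKM in WT and 21.1 and 20.8 in KO (0.06 ± 0.11, adjusted p = 0.69), and neither did Zeb2, at 5.86 and 5.83 FPKM in WT and 5.24 and 4.82 in KO (−0.18 ± 0.12, adjusted p = 0.27).

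Signalling genes were read by ligand, receptor and regulator. Among Wnt ligands and secreted Wnt regulators 10 of 19 tested fell and 6 rose (median −0.61). R-spondins, which raise Wnt signalling by protecting its receptors, moved apart. Rspo1 rose from 0.791 and 0.492 FPKM in WT to 63.4 and 63.7 in KO (5.3 ± 0.15, adjusted p = 4.9e-08). Rspo2 fell from 23.6 and 25.4 FPKM in WT to 4.76 and 3.66 in KO (−2.3 ± 0.14, adjusted p = 2.8e-06). Rspo3 fell from 25.3 and 31.6 FPKM in WT to 9.99 and 9.37 in KO (−1.46 ± 0.10, adjusted p = 8.2e-06). Of the ligands, Wnt5a rose from 3.88 and 4.4 FPKM in WT to 13.96 and 14.7 in KO (1.58 ± 0.10, adjusted p = 3.6e-06) and Wnt10a from 0.0528 and 0.0257 FPKM in WT to 3.31 and 3.21 in KO (2.04 ± 0.17, adjusted p = 1.8e-05), Wnt6 was listed at 0 in WT and stood at 1.58 and 1.78 in KO, and Wnt16 fell from 3.36 and 3.26 FPKM in WT to 1.28 and 1.01 in KO (−1.01 ± 0.13, adjusted p = 0.00037). The extracellular inhibitor genes Dkk3 and Frzb fell, as Sfrp2 did. Dkk3 fell from 12.6 and 14.5 FPKM in WT to 4.92 and 5.36 in KO (−1.24 ± 0.17, adjusted p = 0.0004). Frzb fell from 3.36 and 3.14 FPKM in WT to 0.494 and 0.458 in KO (−1.53 ± 0.10, adjusted p = 6.2e-06). The feedback target Axin2 did not pass, at 0.912 and 0.687 FPKM in WT and 1.01 and 1.43 in KO (0.3 ± 0.15, adjusted p = 0.13). Sfrp1, a close relative of Sfrp2, did not pass either, at 7.01 and 7.78 FPKM in WT and 7.27 and 7.31 in KO (−0.02 ± 0.13, adjusted p = 0.93).

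Retinoic acid genes gave 8 higher and 5 lower of 17 tested. The genes of enzymes that make the ligand rose, Aldh1a2 from 0.144 and 0.196 FPKM in WT to 37.9 and 36.4 in KO (5.03 ± 0.12, adjusted p = 2.2e-08). Aldh1a1 rose from 0.254 and 0.17 FPKM in WT to 22.9 and 20.5 in KO (4.22 ± 0.20, adjusted p = 7.6e-07). The degrading enzyme Cyp26b1 rose from 0.934 and 0.688 FPKM in WT to 7.15 and 7.39 in KO (2.19 ± 0.12, adjusted p = 2e-06) and the binding protein Crabp1 from 18.7 and 24.4 FPKM in WT to 70.04 and 77.04 in KO (1.73 ± 0.16, adjusted p = 4.5e-05). Receptor genes fell, Rxra from 29.4 and 31.4 FPKM in WT to 10.8 and 11.4 in KO (−1.38 ± 0.07, adjusted p = 8.5e-07) and Rarg from 40.01 and 41.4 FPKM in WT to 17.9 and 20.4 in KO (−1.05 ± 0.16, adjusted p = 0.0008).

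In the insulin-like growth factor system 6 of 16 rose and 4 fell, beside 19.6% and 22.9% over all genes. The largest rises were those of secreted binding proteins, which hold the ligands outside the cell. Igfbp6 rose from 2.99 and 2.57 FPKM in WT to 51.2 and 55.8 in KO (3.85 ± 0.22, adjusted p = 2.5e-06). Igfbp3 rose from 7.22 and 6.84 FPKM in WT to 68.2 and 66.5 in KO (3.09 ± 0.10, adjusted p = 1.1e-07). Igfbp7 rose from 41.7 and 36.6 FPKM in WT to 71.01 and 75.7 in KO (0.89 ± 0.12, adjusted p = 0.00042). Another of them, Igfbp4, fell from 52.8 and 60.5 FPKM in WT to 33.1 and 32.2 in KO (−0.77 ± 0.07, adjusted p = 3.8e-05). Igf1 rose from 1.23 and 1.32 FPKM in WT to 2.48 and 2.61 in KO (0.64 ± 0.11, adjusted p = 0.0014). Igf2 did not pass, at 5.38 and 5.72 FPKM in WT and 5.04 and 4.93 in KO (−0.13 ± 0.18, adjusted p = 0.61). The receptor gene Igf1r did not pass either, at 29.99 and 30.6 FPKM in WT and 25.7 and 27.5 in KO (−0.18 ± 0.11, adjusted p = 0.2).

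TGF-beta and BMP genes gave 8 higher, 10 lower and 9 without a call of 27, beside 19.6% higher and 22.9% lower over all genes. The ligand Bmp4 rose from 9.79 and 9.29 FPKM in WT to 29.8 and 28.9 in KO (1.53 ± 0.07, adjusted p = 6.7e-07). Its close relative Bmp2 fell from 8.42 and 9.555 FPKM in WT to 1.39 and 2.37 in KO (−1.81 ± 0.17, adjusted p = 4e-05). Tgfb2 fell from 28.8 and 29.1 FPKM in WT to 13.3 and 12.3 in KO (−1.12 ± 0.09, adjusted p = 2.1e-05). The other ligand genes Tgfb1, at 39.8 and 39.4 FPKM in WT and 42.4 and 41.6 in KO (0.08 ± 0.04, adjusted p = 0.16), and Tgfb3, at 40.8 and 42.1 FPKM in WT and 34.99 and 37.004 in KO (−0.2 ± 0.12, adjusted p = 0.23), did not pass. Of the receptors, Tgfbr1 rose from 4.39 and 4.83 FPKM in WT to 14.4 and 12.1 in KO (1.34 ± 0.10, adjusted p = 1.1e-05) and Tgfbr2 fell from 33.6 and 35.4 FPKM in WT to 21.8 and 22.2 in KO (−0.63 ± 0.05, adjusted p = 2.3e-05). The target Id2 fell from 54.4 and 58.2 FPKM in WT to 35.4 and 28.2 in KO (−0.81 ± 0.12, adjusted p = 0.00057). The 8 rises were 5 without WT replicate 2 or without either KO replicate. Targets of the YAP and TEAD factors divided evenly, with 4 higher, 4 lower and 7 without a call.

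In the Notch, Hedgehog and FGF list 13 of 27 fell and 9 rose, beside 22.9% and 19.6% over all genes. The genes Fgf7 and Fgf10, whose products mesenchyme sends to epithelium, fell, and so did the receptor gene Fgfr2. Splice forms of a gene were not told apart here. Fgf7 fell from 13.2 and 13.1 FPKM in WT to 2.24 and 2.2 in KO (−2.14 ± 0.11, adjusted p = 1.2e-06). Fgf10 fell from 4.18 and 4.66 FPKM in WT to 0.3 and 0.287 in KO (−2.07 ± 0.12, adjusted p = 2.7e-06). The receptor gene Fgfr2 fell from 14.9 and 15.7 FPKM in WT to 2.57 and 2.47 in KO (−2.21 ± 0.07, adjusted p = 7.5e-08). Fgf18 rose from 0.357 and 0.562 FPKM in WT to 5.48 and 5.56 in KO (2.16 ± 0.15, adjusted p = 6.5e-06). Among feedback genes and targets of FGF and ERK signalling 4 rose and 2 did not pass. Spry4 rose from 2.89 and 3.13 FPKM in WT to 10.8 and 10.6 in KO (1.55 ± 0.09, adjusted p = 1.8e-06). Etv4 rose from 5.99 and 5.39 FPKM in WT to 13.7 and 14.7 in KO (1.18 ± 0.07, adjusted p = 1.9e-06). Etv5 rose from 8.65 and 8.43 FPKM in WT to 15.8 and 15.2 in KO (0.79 ± 0.07, adjusted p = 2.5e-05). Dusp6 rose from 10.1 and 13.4 FPKM in WT to 24.1 and 24.3 in KO (0.99 ± 0.13, adjusted p = 0.0004). Spry1 and Spry2 did not pass (−0.36 and −0.11). Notch1 fell from 21.7 and 23.2 FPKM in WT to 5.88 and 5.33 in KO (−1.83 ± 0.07, adjusted p = 2.2e-07), and its targets Hey1 and Hey2 were also lower (−1.3 and −1.01). Both Hedgehog targets measured fell, Gli1 from 1.17 and 1.44 FPKM in WT to 0.0595 and 0.202 in KO (−1.03 ± 0.12, adjusted p = 0.00017) and Ptch1 from 6.29 and 5.96 FPKM in WT to 3.5 and 3.62 in KO (−0.64 ± 0.09, adjusted p = 0.00045). The transducer gene Smo rose from 34.2 and 34.6 FPKM in WT to 41.8 and 44.3 in KO (0.32 ± 0.06, adjusted p = 0.0025).

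Guidance genes gave 11 lower and 6 higher of 22, beside 22.9% lower and 19.6% higher over all genes. Plxna4, given above, had the largest rise of the list. Another plexin, Plxnb1, rose from 0.721 and 0.975 FPKM in WT to 15.97 and 17.4 in KO (3.26 ± 0.12, adjusted p = 2e-07). The membrane-bound semaphorin gene Sema6d rose from 0.247 and 0.268 FPKM in WT to 9.41 and 10.3 in KO (3.11 ± 0.10, adjusted p = 1.1e-07). Sema5a rose from 2.18 and 2.13 FPKM in WT to 19.6 and 19.2 in KO (2.69 ± 0.09, adjusted p = 1.2e-07). The secreted Sema3c rose from 7.04 and 7.32 FPKM in WT to 39.3 and 38.3 in KO (2.28 ± 0.09, adjusted p = 2.9e-07). The co-receptor genes fell, Nrp1 from 37.1 and 39.6 FPKM in WT to 13.8 and 13.4 in KO (−1.43 ± 0.09, adjusted p = 3e-06) and Nrp2 from 36.4 and 37.4 FPKM in WT to 18.96 and 19.5 in KO (−0.91 ± 0.07, adjusted p = 8.6e-06). Their ligand gene Sema3a fell from 35.7 and 38.01 FPKM in WT to 15.9 and 14.8 in KO (−1.21 ± 0.09, adjusted p = 1.1e-05). All 3 plexins of class A other than Plxna4 fell, the deepest being Plxna2 at 2.82 and 3.33 FPKM in WT and 0.567 and 0.529 in KO (−1.39 ± 0.09, adjusted p = 4.9e-06).

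Genes induced by interferon fell in KO almost as a whole. Of 46 listed and tested, 41 fell, 2 rose and 3 did not pass (median −0.94), beside 22.9% lower over all genes, and the list summed to 1136 and 1223 FPKM in WT and 428 and 446 in KO. They include effectors that block viral replication, sensors of foreign RNA and the factors that relay the interferon signal. Rtp4 fell from 61.6 and 61.7 FPKM in WT to 9.94 and 13.5 in KO (−2.31 ± 0.12, adjusted p = 1.5e-06). Isg15, the ubiquitin-like modifier, fell from 91.03 and 103 FPKM in WT to 18.1 and 23.1 in KO (−2.19 ± 0.27, adjusted p = 0.00024). Bst2, tetherin, fell from 149.7 and 163 FPKM in WT to 42.3 and 43.4 in KO (−1.84 ± 0.20, adjusted p = 9.6e-05). The RNA sensors Ddx58 and Ifih1 fell from 34.1 and 32.2 FPKM in WT to 13.6 and 13.9 in KO (−1.21 ± 0.05, adjusted p = 4.8e-07) and from 10.2 and 9.77 FPKM in WT to 5.59 and 5.16 in KO (−0.78 ± 0.06, adjusted p = 1.4e-05). Among the relay factors, Stat2 fell from 53.01 and 56.2 FPKM in WT to 20.8 and 24.2 in KO (−1.24 ± 0.08, adjusted p = 5.2e-06). Irf9 fell from 16.9 and 17.8 FPKM in WT to 8.55 and 9.22 in KO (−0.89 ± 0.08, adjusted p = 3.9e-05). Irf7 fell from 19.3 and 20.6 FPKM in WT to 10.5 and 10.998 in KO (−0.83 ± 0.12, adjusted p = 0.00049). The differences of these relay factors had smaller estimates than those of Rtp4, Isg15 and Bst2, which were named for being among the largest falls of the list. The exceptions were Rsad2 and Oas3. Rsad2, viperin, rose from 3.36 and 2.7 FPKM in WT to 4.78 and 4.94 in KO (0.54 ± 0.11, adjusted p = 0.0032). Oas3 rose from 0.324 and 0.304 FPKM in WT to 0.487 and 0.61 in KO (0.24 ± 0.07, adjusted p = 0.027), and it did not pass without either WT replicate or KO replicate 2, which leaves Rsad2. Oasl1, Zbp1 and Isg20 did not pass.

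Promoters were searched for the interferon-stimulated response element, taken as GAAA, any 2 bases and GAAA again, on both strands (TTTC, any 2 bases and TTTC on the other), from 250 bases before to 50 after each start in RefSeq (GRCm38.p6). It was present in 18 of 34 list members with a promoter in the table (52.9%), in 3.73% of the 9940 tested genes with one and in 3.44% of all 32851 promoters. The members with a match had a median difference of −1.26 and those without one −0.74. These promoters are shown because the first 3 belong to genes that fell by 1.79 or more on the log2 scale and the fourth to Rsad2, which rose. The promoter of Oas3, the other member that rose, has a match as well. Capitals mark matches, of which there are 3 in Isg15 and 2 in Oas1a, overlapping in both, 2 in Ifit1 and 1 in Rsad2. The regions are Isg15 (chr4:156200769-156201068, minus strand), Oas1a (chr5:120907476-120907775, minus strand), Ifit1 (chr19:34640639-34640938, plus strand) and Rsad2 (chr12:26456403-26456702, minus strand), each written 5′ to 3′ in the direction of the gene.
Isg15: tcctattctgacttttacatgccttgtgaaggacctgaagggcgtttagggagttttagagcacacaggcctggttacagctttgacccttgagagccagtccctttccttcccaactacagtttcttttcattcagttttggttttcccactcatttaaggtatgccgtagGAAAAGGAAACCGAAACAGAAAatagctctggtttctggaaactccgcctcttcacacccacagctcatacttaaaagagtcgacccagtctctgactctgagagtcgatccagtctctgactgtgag
Oas1a: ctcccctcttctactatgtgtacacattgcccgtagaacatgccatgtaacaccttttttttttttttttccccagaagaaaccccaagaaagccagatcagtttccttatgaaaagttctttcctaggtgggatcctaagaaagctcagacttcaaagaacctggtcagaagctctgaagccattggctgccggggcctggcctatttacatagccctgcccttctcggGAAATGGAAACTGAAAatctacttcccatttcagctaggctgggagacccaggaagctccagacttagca
Ifit1: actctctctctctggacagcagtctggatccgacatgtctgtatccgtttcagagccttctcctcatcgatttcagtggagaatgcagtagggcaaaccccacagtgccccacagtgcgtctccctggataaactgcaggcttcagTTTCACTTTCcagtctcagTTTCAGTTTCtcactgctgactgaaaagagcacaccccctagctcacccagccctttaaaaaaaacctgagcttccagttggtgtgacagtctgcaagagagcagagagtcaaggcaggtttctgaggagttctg
Rsad2: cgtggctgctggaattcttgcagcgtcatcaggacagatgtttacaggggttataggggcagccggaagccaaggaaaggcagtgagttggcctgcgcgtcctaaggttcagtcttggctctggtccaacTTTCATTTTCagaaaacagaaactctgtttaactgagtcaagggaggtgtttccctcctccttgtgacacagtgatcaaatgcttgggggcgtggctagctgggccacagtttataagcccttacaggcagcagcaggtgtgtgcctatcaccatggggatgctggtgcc
Oas1a, an enzyme that activates RNase L, fell from 18.95 and 20.2 FPKM in WT to 4.19 and 4.12 in KO (−2.0 ± 0.06, adjusted p = 9.2e-08), with the caution that members of the Oas family share sequence. Ifit1, which binds viral RNA caps, fell from 82.9 and 86.6 FPKM in WT to 22.6 and 24.998 in KO (−1.79 ± 0.06, adjusted p = 1.5e-07). A match in the promoter was thus found in genes of both signs.

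Class I antigen presentation was not moved as a block, with 7 lower, 2 higher and 6 without a call of 15. Tapbp, tapasin, fell from 122 and 136 FPKM in WT to 51.97 and 58.4 in KO (−1.21 ± 0.11, adjusted p = 3.9e-05). The peptide transporter Tap1 fell from 11.5 and 12.5 FPKM in WT to 7.26 and 8.35 in KO (−0.56 ± 0.09, adjusted p = 0.0012). The peptide trimmer Erap1 fell from 7.82 and 8.1 FPKM in WT to 3.99 and 3.23 in KO (−0.96 ± 0.11, adjusted p = 0.00017). The heavy-chain genes rose instead, H2-K1 from 11.5 and 15.1 FPKM in WT to 83.4 and 87.999 in KO (2.61 ± 0.18, adjusted p = 7.5e-06) and H2-D1 from 26.5 and 31.8 FPKM in WT to 64.4 and 70.1 in KO (1.18 ± 0.16, adjusted p = 0.00042). H2-Q6, of the neighbouring Q region, rose from 3.44 and 6.61 FPKM in WT to 57.6 and 64.2 in KO (3.41 ± 0.22, adjusted p = 4.8e-06). These genes vary between strains and share sequence, and the handling of shared reads is not given in the sources used here. The invariant light chain B2m did not pass, at 1847 and 2151 FPKM in WT and 2271 and 2286 in KO (0.19 ± 0.15, adjusted p = 0.35).

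Secreted immune mediators went both ways. Of 13 tested chemokines and receptors 6 fell and 2 rose. Ccl2, which draws monocytes, rose from 9.94 and 8.46 FPKM in WT to 55.7 and 50.6 in KO (2.41 ± 0.09, adjusted p = 1.7e-07), and Cxcl16 from 1.23 and 1.39 FPKM in WT to 14.2 and 12.4 in KO (2.63 ± 0.12, adjusted p = 7.6e-07). Cxcl12, the homing chemokine of stroma, fell from 145 and 167 FPKM in WT to 66.9 and 67.2 in KO (−1.2 ± 0.09, adjusted p = 1.1e-05) together with its scavenging receptor Ackr3 from 9.3 and 10.8 FPKM in WT to 1.04 and 0.674 in KO (−2.57 ± 0.14, adjusted p = 1.9e-06). Complement genes gave 6 higher and 2 lower of 11, the latter 0 or 1 when any 1 library was left out, and the list summed to 82.9 and 94.7 FPKM in WT and 297 and 298 in KO. C3, the central component, rose from 2.78 and 2.76 FPKM in WT to 79.4 and 83.8 in KO (4.45 ± 0.12, adjusted p = 2.9e-08). Cd55, an inhibitor of complement on the cell surface, rose from 2.98 and 3.11 FPKM in WT to 105.0 and 97.5 in KO (4.66 ± 0.20, adjusted p = 5.1e-07). C1s1, a protease of the first component, rose from 14.8 and 17.7 FPKM in WT to 45.3 and 45.6 in KO (1.43 ± 0.11, adjusted p = 1.6e-05). Of the other secreted inflammatory factors 6 of 12 rose and 4 fell. Il18 rose from 0.868 and 1.87 FPKM in WT to 22.7 and 23.1 in KO (3.37 ± 0.20, adjusted p = 2.8e-06). The prostacyclin synthase gene Ptgis rose from 0.0254 and 0 FPKM in WT to 5.24 and 5.65 in KO (2.67 ± 0.15, adjusted p = 2e-06). The cyclooxygenase gene Ptgs1 rose from 10.1 and 10.3 FPKM in WT to 37.6 and 36.1 in KO (1.76 ± 0.09, adjusted p = 1.5e-06). Ptgs2, the inducible cyclooxygenase, was at 11.6 and 10.3 FPKM in WT and 9.59 and 7.42 in KO and did not pass (−0.34 ± 0.13, adjusted p = 0.061).

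Targets of p53, the factor that answers DNA damage, mostly fell, with 23 of 36 lower, 6 higher and 7 without a call (median −0.78). Cdkn1a, the p21 inhibitor of the cell cycle, fell from 41.9 and 47.7 FPKM in WT to 9.76 and 9.39 in KO (−2.11 ± 0.14, adjusted p = 5.3e-06). Mdm2, which degrades p53, fell from 40.5 and 39.9 FPKM in WT to 23.2 and 22.1 in KO (−0.8 ± 0.08, adjusted p = 8.2e-05). The pro-death gene Bax fell from 29.8 and 31.9 FPKM in WT to 11.2 and 14.2 in KO (−1.23 ± 0.26, adjusted p = 0.005). Perp fell from 9.84 and 10.998 FPKM in WT to 2.54 and 2.29 in KO (−1.74 ± 0.12, adjusted p = 7.8e-06). Trp53 itself rose from 33.2 and 32.5 FPKM in WT to 41.9 and 42.04 in KO (0.34 ± 0.06, adjusted p = 0.0011). Among the members that rose, Gadd45a rose from 2.96 and 3.69 FPKM in WT to 17.7 and 16.2 in KO (2.06 ± 0.17, adjusted p = 1.7e-05). Pmaip1, Noxa, rose from 3.25 and 3.49 FPKM in WT to 7.5 and 6.32 in KO (0.85 ± 0.08, adjusted p = 4.2e-05). The 6 rises were 3 without replicate 1 of either genotype. At the Ink4 locus Cdkn2a was at 122 and 119 FPKM in WT and 85.7 and 99.1 in KO and did not pass (−0.38 ± 0.17, adjusted p = 0.11), and the neighbouring Cdkn2b fell from 19.9 and 19.4 FPKM in WT to 14.9 and 14.04 in KO (−0.42 ± 0.09, adjusted p = 0.0043). Cdk6, a kinase that drives entry into the cycle, rose from 5.73 and 4.66 FPKM in WT to 20.8 and 18.96 in KO (1.76 ± 0.14, adjusted p = 1.6e-05), whereas Cdk4 fell from 122 and 123 FPKM in WT to 87.4 and 92.9 in KO (−0.44 ± 0.08, adjusted p = 0.0025) and Ccnd1, their cyclin, from 16.4 and 12.9 FPKM in WT to 7.97 and 8.03 in KO (−0.79 ± 0.13, adjusted p = 0.0016).

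Proliferation genes were read as lists of mitosis and of replication, beside 42.4% with a call over all genes. Of 26 mitosis genes 11 fell, 1 rose and 14 did not pass (median −0.25). Cdk1 fell from 28.8 and 28.7 FPKM in WT to 19.103 and 18.6 in KO (−0.58 ± 0.06, adjusted p = 7.9e-05). Plk1 fell from 31.7 and 29.9998 FPKM in WT to 21.9 and 20.3 in KO (−0.53 ± 0.09, adjusted p = 0.0016). Mki67, the Ki-67 antigen, fell from 66.4 and 65.3 FPKM in WT to 52.8 and 53.5 in KO (−0.3 ± 0.04, adjusted p = 0.00059). The 11 falls were 7 without WT replicate 1 or KO replicate 2, and no member rose without WT replicate 2 or KO replicate 1. Of 26 replication genes 4 rose, 4 fell and 18 did not pass (median −0.05). The 4 rises were 2 without WT replicate 2 or KO replicate 1, and the 4 falls were 2 without either WT replicate or KO replicate 1. Rrm2, of ribonucleotide reductase, was lower, at 22.7 and 22.8 FPKM in WT and 14.4 and 14.7 in KO (−0.61 ± 0.07, adjusted p = 0.00017). Mcm5, of the replicative helicase, did not pass, at 37.2 and 35.7 FPKM in WT and 36.1 and 36.9 in KO (0.003 ± 0.05, adjusted p = 0.98).

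Metabolic lists differed in direction. Of 25 genes of cholesterol synthesis and its control, 23 fell, none rose and 2 did not pass (median −0.76), and the list summed to 632 and 577 FPKM in WT and 352 and 348 in KO. Hmgcs1, an early enzyme of the mevalonate pathway, fell from 42.2 and 39.8 FPKM in WT to 18.3 and 17.3 in KO (−1.16 ± 0.07, adjusted p = 4.3e-06). Fdps, which makes farnesyl pyrophosphate, fell from 82.2 and 67.5 FPKM in WT to 25.1 and 28.3 in KO (−1.45 ± 0.17, adjusted p = 0.00017). Sqle, which epoxidises squalene, fell from 25.02 and 23.3 FPKM in WT to 12.7 and 12.9 in KO (−0.87 ± 0.07, adjusted p = 1.2e-05). The master regulator Srebf2 fell from 73.7 and 73.3 FPKM in WT to 58.6 and 63.2 in KO (−0.27 ± 0.07, adjusted p = 0.018). Its call was lost without either WT replicate or KO replicate 1. Stard4 did not pass. The sterol response element, written TCACNCCAC, was found in 1 of 17 member promoters, that of Hmgcs1, against 1.24% of all promoters. Fatty acid synthesis was mixed, with 7 lower and 4 higher of 14. Scd2 fell from 240.1 and 211 FPKM in WT to 146 and 148 in KO (−0.61 ± 0.08, adjusted p = 0.00026). Elovl6 fell from 19.2 and 17.6 FPKM in WT to 8.11 and 8.37 in KO (−1.07 ± 0.12, adjusted p = 0.00013), while the desaturase Fads2 rose from 98.5 and 92.8 FPKM in WT to 146 and 149 in KO (0.62 ± 0.06, adjusted p = 6e-05) and the carbohydrate-response factor Mlxipl from 0.0364 and 0.0533 FPKM in WT to 4.41 and 5.27 in KO (2.48 ± 0.11, adjusted p = 5.6e-07).

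Glycolysis genes rose in 15 of 21 cases and fell in 4 (median 0.71), and the list summed to 1102 and 974 FPKM in WT and 1686 and 1818 in KO. Gapdh rose from 302 and 261 FPKM in WT to 536 and 567 in KO (0.97 ± 0.15, adjusted p = 0.00092). Eno1, enolase, rose from 83.03 and 63.6 FPKM in WT to 156 and 166 in KO (1.14 ± 0.11, adjusted p = 4.4e-05). Pgam1, phosphoglycerate mutase, rose from 126 and 112 FPKM in WT to 209.7 and 234 in KO (0.89 ± 0.09, adjusted p = 5.4e-05). Hk2, hexokinase-2, rose from 2.15 and 1.5 FPKM in WT to 5.56 and 6.43 in KO (1.31 ± 0.17, adjusted p = 0.00033). Slc16a3, which exports lactate, rose from 0.901 and 0.866 FPKM in WT to 4.69 and 5.69 in KO (1.71 ± 0.13, adjusted p = 1.4e-05). Hk1, another hexokinase, fell from 13.2 and 12.7 FPKM in WT to 7.28 and 8.43 in KO (−0.66 ± 0.11, adjusted p = 0.0018). The 4 falls of the list were 1 without KO replicate 1 and 2 without KO replicate 2. Ldha, lactate dehydrogenase A, was at 50.5 and 44.8 FPKM in WT and 45.2 and 51.95 in KO and did not pass (0.03 ± 0.15, adjusted p = 0.9).

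Genes induced by hypoxia rose in 14 of 20 tested and fell in none (median 0.82), beside 19.6% higher over all genes. Without WT replicate 2, 1 member fell. Egln3, the oxygen-sensing prolyl hydroxylase that hypoxia itself induces, rose from 0.416 and 0.549 FPKM in WT to 8.84 and 9.23 in KO (2.76 ± 0.10, adjusted p = 1.7e-07). Vegfa, the angiogenic factor, rose from 10.9 and 10.6 FPKM in WT to 23.2 and 25.1 in KO (1.1 ± 0.13, adjusted p = 0.00019). Bnip3, a mitophagy receptor, rose from 10.6 and 8.18 FPKM in WT to 23.2 and 21.04 in KO (1.16 ± 0.15, adjusted p = 0.00031). Pdk1, which shuts pyruvate out of mitochondria, rose from 2.82 and 2.82 FPKM in WT to 6.43 and 7.15 in KO (1.03 ± 0.08, adjusted p = 1.3e-05). The Myc antagonist Mxi1 rose from 4.09 and 3.77 FPKM in WT to 16.2 and 15.4 in KO (1.77 ± 0.08, adjusted p = 7.9e-07). Ddit4 and Adm, also hypoxia targets, did not pass (0.002 and −0.32). The core of the hypoxia response element, written ACGTG and read on both strands (CACGT on the other), was found in 12 of 17 member promoters (70.6%), in 29% of tested genes and in 19.6% of all promoters. Members with and without it had medians of 0.85 and 0.9. The promoter of Egln3 (chr12:54203825-54204124, minus strand) is shown as that of the member with the largest rise, with its 1 match in capitals.
Egln3: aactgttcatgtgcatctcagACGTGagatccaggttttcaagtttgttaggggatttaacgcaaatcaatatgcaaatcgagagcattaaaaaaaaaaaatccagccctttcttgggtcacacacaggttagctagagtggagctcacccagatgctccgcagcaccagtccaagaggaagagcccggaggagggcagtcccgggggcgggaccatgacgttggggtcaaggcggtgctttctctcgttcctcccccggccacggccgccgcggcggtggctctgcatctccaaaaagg
The match lies near the 5′ end of the window, at −229 from the start.

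The lists of this paragraph are read beside 19.6% higher and 22.9% lower over all genes tested. The 13 listed protein-coding genes of the mitochondrial genome summed to 42193 and 41969 FPKM in WT and 60422 and 58557 in KO. Only mt-Atp8 and mt-Nd4l passed, both as higher, at 139.8 and 163 FPKM in WT and 222 and 204 in KO (0.49 ± 0.13, adjusted p = 0.013) and 2506 and 2595 FPKM in WT and 4278 and 4356 in KO (0.76 ± 0.26, adjusted p = 0.046). The count was 11 of 13 higher when only the 4 DMSO libraries were fitted and 7 with limma-voom on the recovered reads, and it was 0 without replicate 1 of either genotype and 1 without either replicate 2. Cytosolic ribosomal protein genes gave 8 lower, 3 higher and 67 without a call of 78 (median −0.08), with 24 lower and 10 higher when only the 4 DMSO libraries were fitted and 3 to 5 lower when any 1 of them was left out. The 3 rises were 1 without WT replicate 2 or either KO replicate. Targets of the oxidative-stress factor NRF2 gave 7 lower and 2 higher of 20, and Nqo1 fell from 16.5 and 17.5 FPKM in WT to 3.63 and 4.31 in KO (−1.86 ± 0.13, adjusted p = 7.8e-06). Gsta4 rose from 2.28 and 2.49 FPKM in WT to 19.3 and 19.5 in KO (2.59 ± 0.15, adjusted p = 2e-06). Without KO replicate 1 the counts were 4 lower and 1 higher, and without WT replicate 2 just 1 was higher. Nfe2l2, which encodes NRF2, did not pass, at 35.2 and 33.2 FPKM in WT and 34.5 and 33.7 in KO (−0.002 ± 0.08, adjusted p = 0.99). In the list of endoplasmic-reticulum and amino-acid stress 6 of 20 rose and 3 fell. Those of the amino-acid branch rose, Asns from 9.49 and 7.12 FPKM in WT to 26.3 and 24.4 in KO (1.51 ± 0.11, adjusted p = 9.4e-06), Chac1 from 5.78 and 5.09 FPKM in WT to 13.7 and 14.8 in KO (1.25 ± 0.15, adjusted p = 0.00017) and Trib3 from 4.89 and 3.38 FPKM in WT to 9.82 and 10.9 in KO (1.16 ± 0.17, adjusted p = 0.00072). The chaperone Hspa5 did not pass, at 47.3 and 44.4 FPKM in WT and 44.2 and 46.2 in KO (−0.02 ± 0.14, adjusted p = 0.94). Immediate early genes gave 9 higher, 6 lower and 10 without a call of 25. Jun rose from 18.2 and 21.03 FPKM in WT to 44.5 and 43.2 in KO (1.12 ± 0.12, adjusted p = 0.00012). Egr1 rose from 267 and 282 FPKM in WT to 459 and 414 in KO (0.67 ± 0.10, adjusted p = 0.00073). Klf2 fell from 31.05 and 34.9 FPKM in WT to 14.5 and 12.4 in KO (−1.23 ± 0.14, adjusted p = 0.00016). Fos did not pass, at 97.6 and 142 FPKM in WT and 139 and 121 in KO (0.14 ± 0.22, adjusted p = 0.66).

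Mesenchymal lineage genes were mixed as well. Of 8 tested adipocyte genes 3 rose and 3 fell. Lpl, lipoprotein lipase, rose from 0.124 and 0.149 FPKM in WT to 38.9 and 38.98 in KO (5.14 ± 0.13, adjusted p = 2.8e-08). Pparg, the adipogenic receptor, fell from 3.61 and 3.94 FPKM in WT to 0.513 and 0.585 in KO (−1.62 ± 0.10, adjusted p = 3.6e-06), with Adipoq and Plin1 not reaching the filter. Of 10 tested cartilage and bone genes 4 fell and 1 rose. Comp, the cartilage oligomeric matrix protein, fell from 12.05 and 14.7 FPKM in WT to 1.96 and 1.58 in KO (−2.37 ± 0.15, adjusted p = 3.6e-06). Spp1, osteopontin, rose from 180.1 and 141 FPKM in WT to 289 and 282 in KO (0.84 ± 0.10, adjusted p = 0.00026), while Sox9, at 8.34 and 8.16 FPKM in WT and 7.97 and 8.9 in KO (0.03 ± 0.07, adjusted p = 0.81), did not pass.

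Genes of chromatin silencing were read as 3 lists, beside 19.6% higher and 22.9% lower over all genes. Of 12 tested genes of DNA methylation and its removal 2 rose and 2 fell. The methyltransferase genes and their guide Uhrf1 did not pass. Dnmt1 was at 58.8 and 60.8 FPKM in WT and 48.8 and 52.9 in KO (−0.23 ± 0.12, adjusted p = 0.17). Dnmt3a was at 5.88 and 6.47 FPKM in WT and 6.53 and 6.72 in KO (0.09 ± 0.11, adjusted p = 0.57). Uhrf1 was at 36.2 and 35.2 FPKM in WT and 36.5 and 34.6 in KO (−0.004 ± 0.06, adjusted p = 0.97). Tet3, a 5-methylcytosine oxidase, rose from 16.1 and 16.9 FPKM in WT to 23.3 and 23.6 in KO (0.48 ± 0.07, adjusted p = 0.00042). Each count was 1 when any 1 of the 4 libraries was left out. Of 21 genes of H3K9 methylation and KAP1 repression 7 rose and 2 fell, and Setdb1 fell from 12.7 and 12.6 FPKM in WT to 10.2 and 9.87 in KO (−0.31 ± 0.06, adjusted p = 0.004). Trim28 was at 45.3 and 45.3 FPKM in WT and 42.9 and 47.996 in KO (0.003 ± 0.12, adjusted p = 0.99, no call) and Zfp57, which guards imprints, at 5.84 and 5.61 FPKM in WT and 15.9 and 16.3 in KO (1.35 ± 0.09, adjusted p = 6e-06). Of 26 Polycomb genes 7 rose and 6 fell. Ezh2, the H3K27 methyltransferase, rose from 10.4 and 10.6 FPKM in WT to 13.2 and 12.9 in KO (0.29 ± 0.05, adjusted p = 0.0021). Its partner Suz12 rose from 17.9 and 17.4 FPKM in WT to 23.9 and 23.3 in KO (0.4 ± 0.07, adjusted p = 0.0022). Eed fell from 8.73 and 8.996 FPKM in WT to 6.77 and 7.31 in KO (−0.3 ± 0.06, adjusted p = 0.005). Rnf2, which ubiquitylates H2A, fell from 20.6 and 21.8 FPKM in WT to 15.1 and 14.4 in KO (−0.49 ± 0.10, adjusted p = 0.0049). Subunits of the same complexes thus had opposite signs. Of 22 germline genes known to be silenced by promoter methylation 7 were tested, and none passed in DMSO. With a pseudocount of 0.1 limma called 1 higher and 1 lower, with no filter 1 lower of 22, and limma-voom 1 higher. The list summed to 1.66 and 2.09 FPKM in WT and 0.996 and 1.1 in KO.

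Imprinted genes, expressed from 1 parental copy, gave 8 higher, 6 lower and 3 without a call of 17 tested. H19, the maternal non-coding RNA, rose from 28.4 and 33.2 FPKM in WT to 333 and 323 in KO (3.37 ± 0.20, adjusted p = 2.7e-06), but its neighbour Igf2 did not pass, as given above. Peg3 rose from 0.176 and 0.186 FPKM in WT to 7.005 and 6.65 in KO (2.73 ± 0.09, adjusted p = 1.3e-07). Plagl1 fell from 141 and 139 FPKM in WT to 19.5 and 15.8 in KO (−2.93 ± 0.32, adjusted p = 0.00011). Peg10 fell from 61.1 and 62.5 FPKM in WT to 15.5 and 14.3 in KO (−1.98 ± 0.15, adjusted p = 1.2e-05). Grb10 fell from 51.1 and 50.9 FPKM in WT to 24.3 and 24.8 in KO (−1.03 ± 0.06, adjusted p = 1.8e-06). Cdkn1c, a growth inhibitor, was at 2.97 and 4.54 FPKM in WT and 2.67 and 3.04 in KO and did not pass (−0.28 ± 0.21, adjusted p = 0.31). The 8 rises were 5 without WT replicate 1, and 5 with a filter at 5 FPKM.

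Clustered protocadherins, adhesion genes whose promoters are chosen one by one from a tandem array, fell in 28 of 29 tested, and the other, Pcdhgb1, did not pass (−0.16). The sum was 151 and 163 FPKM in WT and 87.4 and 87.3 in KO, and the median was −0.61. Pcdhgc3 fell from 21.9 and 23.3 FPKM in WT to 11.3 and 11.9 in KO (−0.9 ± 0.06, adjusted p = 5.8e-06). Pcdhgb2 fell from 12.99 and 13.3 FPKM in WT to 5.94 and 5.05 in KO (−1.13 ± 0.08, adjusted p = 6.4e-06). These genes share exons and sequence, so their reads are not independent of each other. With a filter at 5 FPKM 10 were tested, and 10 fell.

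Xist and the tested Y-linked genes of the list separated the genotypes fully. Of 9 tested genes on chromosome Y 6 rose and 2 fell. Of 545 on chromosome X 14.1% rose and 27.5% fell, beside 19.6% and 22.9% over all genes. The 4 tested Y-linked genes of the list were at no more than 0.0305 FPKM in either WT library, and Ddx3y, a helicase, stood at 3.13 and 3.02 FPKM in KO, Eif2s3y at 3.37 and 3.11, Uty at 2.81 and 2.42 and Kdm5d at 1.94 and 1.57. They passed the filter only through KO. Xist, the RNA that coats an inactive X, fell from 169.7 and 181 FPKM in WT to 0.923 and 0.579 in KO (−6.66 ± 0.26, adjusted p = 2.4e-07). In the list of X inactivation and escape from it 7 of 8 tested members fell, Xist among them, and 5 fell without WT replicate 1 or KO replicate 2. Of the genes known to escape, Eif2s3x fell from 59.3 and 59.5 FPKM in WT to 35.6 and 35.5 in KO (−0.73 ± 0.09, adjusted p = 0.00022). Kdm6a fell from 16.2 and 16.1 FPKM in WT to 11.04 and 10.5 in KO (−0.54 ± 0.11, adjusted p = 0.0037). Ddx3x fell from 50.3 and 53.99 FPKM in WT to 38.1 and 37.04 in KO (−0.46 ± 0.07, adjusted p = 0.001). Which strand was counted is not given in the sources used here, so reads of Xist and of its antisense gene Tsix cannot be told apart with certainty, although Tsix stood at 0 in WT. Transcripts from the Y were found in all KO libraries of this table and high Xist in all its WT libraries. With NT siRNA all 4 tested Y-linked genes of the list were higher in KO and all 7 tested members of the X list lower. Over all genes there 23.7% were higher and 40.4% lower. The sex and origin of the cells and the knockout therefore cannot be told apart in any difference given here.

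Position on the other chromosomes also went with the difference. The median was −0.44 for the 693 tested genes of chromosome 10, where 57.9% fell and 8.23% rose, and −0.35 for chromosome 13, where 49.1% fell. It was −0.24 for chromosomes 3 and 12. Chromosome 11 had a median of 0.17 with 34.9% higher, and chromosome 6 one of 0.16 with 36.4% higher. The SD of the 19 autosome medians was 0.162 here, 0.080 between genotypes under DAC and 0.144 with NT siRNA. Under DAC chromosome 10 was at −0.12 and chromosome 13 at −0.11, and with NT siRNA they were at −0.08 and −0.23. Anp32e lies on chromosome 3 and Plagl1 on chromosome 10. Among 7232 tested genes with a CpG-rich promoter (at least 50% G and C and an observed to expected CpG ratio of at least 0.6) 20.9% rose and 26.2% fell, and among 2708 others 22.5% rose and 31% fell. Rises of at least 8-fold made up 0.512% of the CpG-rich genes and 1.4% of the others.

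**Figure D4:**
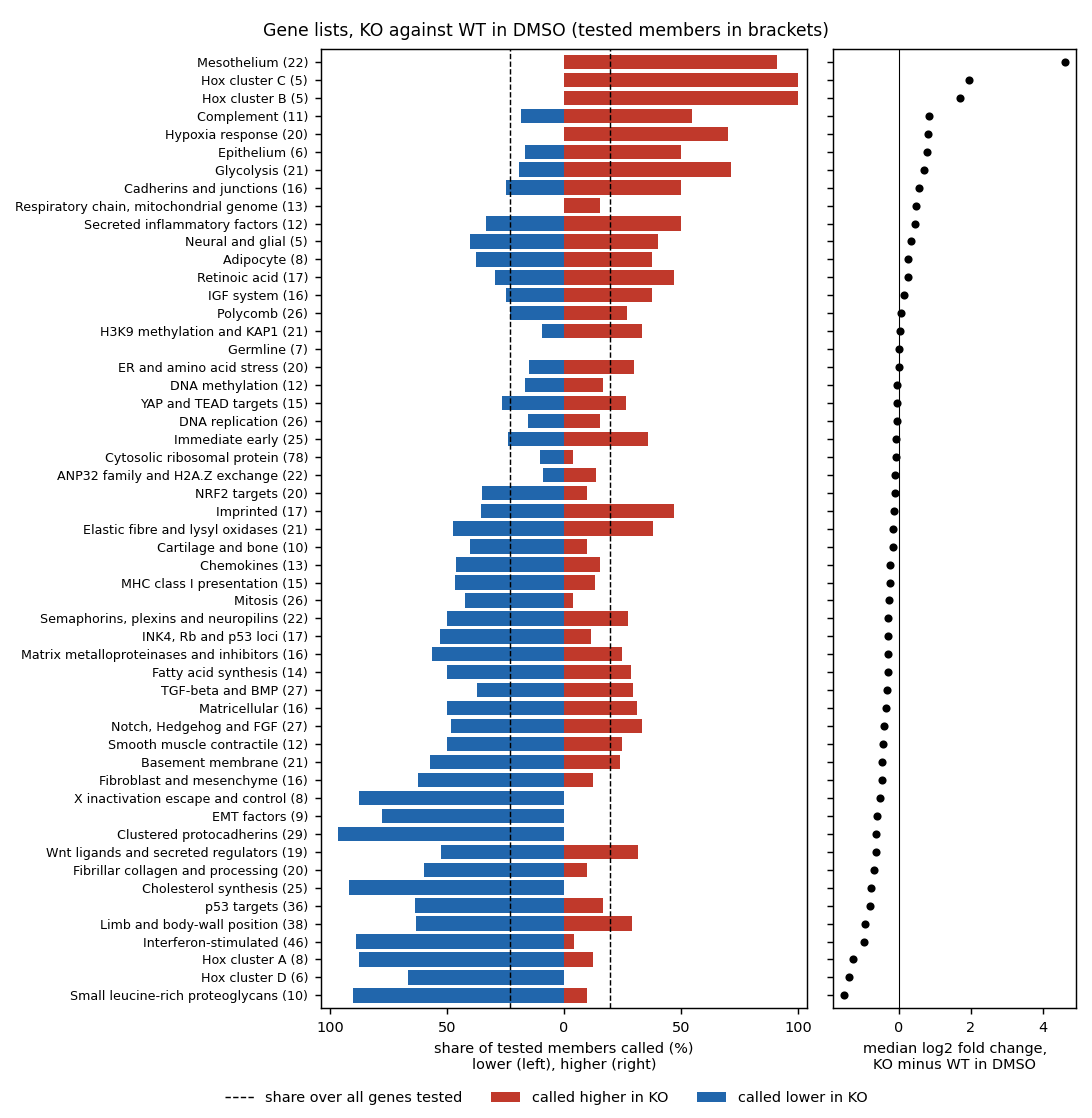
For each gene list with at least 5 tested members, the share of members that rose or fell in KO against WT in DMSO (percent) and the median log2 difference, with dashed lines for all 16434 genes. By median, mesothelial genes and Hox clusters C and B stand highest, and small leucine-rich proteoglycans and Hox clusters D and A lowest.

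The same genotypes were sequenced under other conditions in further libraries. The DAC libraries were fitted together with the DMSO ones, so the DMSO and DAC tests share a common estimate of the spread. The siRNA libraries were fitted apart. KO against WT under DAC gave 1828 higher and 1902 lower of 16434 (22.7%, 11.1% higher and 11.6% lower), and with NT siRNA 3004 higher and 5122 lower of 12668 (64.1%, 23.7% higher and 40.4% lower). Centring each siRNA library on its median moved the median difference from −0.096 to 0.029 and the counts to 4288 higher and 3780 lower, so directions with NT siRNA are relative to the deposited scaling. The siRNA table was normalised separately, in RPKM (reads per kilobase, scaled to depth), so only differences within it are given. Of the genes that rose in DMSO, 1150 also rose under DAC, 35.7% of the DMSO list and 62.9% of the DAC list, and 108 fell. Of those that fell, 1330 also fell under DAC, 35.4% and 69.9% of the lists, and 103 rose. Across genes the 2 differences correlated at 0.578.

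With NT siRNA the shares that matched were nearer to those over all shared genes. Of 2220 genes higher in DMSO and tested in both tables, 805 were also higher, 36.3% of them and 27.8% of the NT list, where 24.4% of all shared genes were higher, and 720 were lower. Of 3067 lower in DMSO, 1469 were also lower, 47.9% of them and 29.9% of the NT list, where 41.3% of all shared genes were lower, and 658 were higher. The correlation across 11906 genes was 0.366. All 3 comparisons had 432 genes higher and 623 lower in common.

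**Figure D5:**
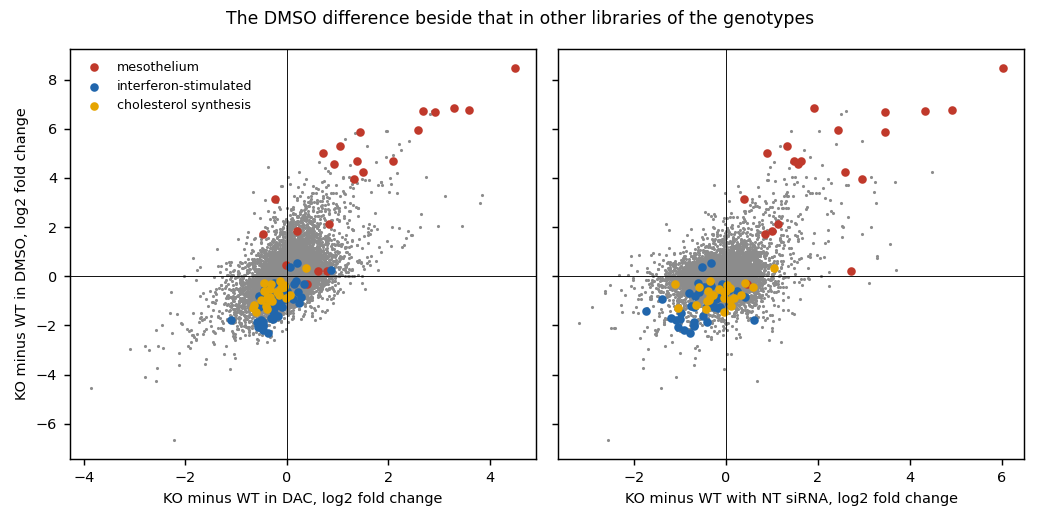
Log2 difference between KO and WT in DMSO (vertical axis) against that under DAC (left) and with NT siRNA (right) on the horizontal axis. Each point is 1 gene, with mesothelial, interferon-stimulated and cholesterol genes coloured. Most mesothelial genes lie at the upper right in both panels, nearer to 0 on the horizontal axis than on the vertical one.

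Mesothelial markers were higher in 17 of 22 and lower in 1 under DAC, and higher in 20 of 20 with NT siRNA. Upk3b stood at 0.0659, 0.0252 and 2.06 FPKM in WT DAC and 29.6, 33.9 and 35.1 in KO DAC, against 372 and 396 in KO DMSO. In the siRNA table it stood at 0.00962, 0 and 0 RPKM in WT and 62.5, 61.8 and 70.4 in KO (6.04 ± 0.06, adjusted p = 9.1e-14). The KO DAC libraries thus lay between WT and KO DMSO for this gene. Dcn was also higher in KO in all 3 (3.83 in DMSO, 1.86 under DAC, 3.24 with NT siRNA), and Tbx5 lower in all 3 (−4.56, −3.86 and −1.43). Sfrp2 was lower in DMSO and DAC (−4.25 and −2.58) but higher with NT siRNA (0.68 ± 0.12, adjusted p = 0.00035). Vim, lower in DMSO, did not pass under DAC (−0.23 ± 0.09, adjusted p = 0.094). Anp32e was lower in each (−1.07 under DAC and −1.74 with NT siRNA), whereas Anp32a, higher in DMSO, did not pass under DAC (−0.02 ± 0.06, adjusted p = 0.88) and was lower with NT siRNA (−0.54 ± 0.09, adjusted p = 0.00022).

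Lists were then read against 11.1% higher and 11.6% lower over all genes under DAC, and 23.7% higher and 40.4% lower with NT siRNA. Interferon-stimulated genes were lower in 19 and higher in 3 of 46 under DAC, and lower in 33 and higher in 3 of 42 with NT siRNA. Targets of p53 were lower in 14 and higher in 2 of 36 under DAC, and lower in 20 and higher in 4 of 33 with NT siRNA. Cholesterol genes were lower in 14 and higher in none of 25 under DAC. With NT siRNA they were lower in 12 and higher in 5 of 25, with a median of −0.05, so their share of falls there was near that over all genes. Glycolysis genes were higher in 12 and lower in 3 of 21 under DAC, and higher in 14 and lower in 2 of 19 with NT siRNA. Fibroblast markers, lower in DMSO, were higher in 10 and lower in 1 of 15 with NT siRNA. Complement genes, 6 of 11 higher in DMSO, were lower in 5 and higher in 2 of 11 under DAC, and higher in 6 and lower in 2 of 8 with NT siRNA. Hox cluster D, lower in DMSO, had 1 member higher and 3 lower of 6 under DAC, and 2 higher and 2 lower of 5 with NT siRNA. The limb and body-wall factors were lower in 22 and higher in 9 of 38 under DAC. With NT siRNA they were lower in 12 and higher in 11 of 28, with a median of −0.11, so the fall of Tbx5 there does not stand for the list. The cluster C genes were higher in 4 of 5 under DAC. Protocadherins were lower in 10 of 29 under DAC. Mitosis genes, 11 of 26 lower in DMSO, were higher in 8 and lower in none under DAC, and lower in 18 with NT siRNA. Germline genes, with none called in DMSO, were higher in all 7 tested under DAC, and they had passed the filter through the DAC libraries.

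The difference in DMSO minus that in DAC was tested gene by gene. It passed for 3960 genes (24.1%), higher in DMSO for 1928 (11.7%) and lower for 2032 (12.4%), a count that was 1345 without KO DMSO replicate 1. Among the genes with a large rise, Aldh1a2 was at 0.369, 0.639 and 0.358 FPKM in WT DAC and 1.44, 1.19 and 1.53 in KO DAC, so that its difference was larger in DMSO (4.31 ± 0.15, adjusted p = 1.2e-06). Igfbp3, higher in KO in DMSO, was lower under DAC (−0.42 ± 0.08, adjusted p = 0.0079), at 2.98, 3.25 and 3.29 in WT and 1.86, 1.98 and 2.54 in KO. Aqp1, a water channel, was at 49.97 and 54.6 FPKM in WT and 15.4 and 15.6 in KO in DMSO and at 32.1, 35.1 and 34.8 in WT and 54.01, 54.4 and 54.8 in KO under DAC, with a difference of opposite sign (−2.35 ± 0.08, adjusted p = 9.4e-07). Xist differed as well (−4.44 ± 0.33, adjusted p = 3.5e-05), at 136, 139.6 and 210.1 FPKM in the WT DAC and 44.4, 28.9 and 28.5 in the KO DAC libraries. The KO DMSO and KO DAC libraries correlated at 0.912 to 0.9178, below the 0.9567 to 0.9669 between KO DAC and WT DAC, and the labels do not say whether both KO sets came from 1 culture.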

How the data were processed

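RNA from MEFs was sequenced after a stranded total RNA kit, per the labels' protocols. The submitters' processing notes name STAR, Bowtie2, deepTools and the build mm10; for versions, gene counter, annotation and counted strand, nothing is given in the sources used here. The authors deposited 1 table of FPKM values (DMSO and DAC, 10 libraries in 4 groups) and 1 of RPKM values (siRNA libraries, of which the 12 were fitted together), each scaled to gene length and library depth. Of 43432 listed genes 12 symbols occur more than once.

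Values were tested as log2(value + 1) with limma 3.58.1 in R 4.3.3, fitted over all groups of a table, for genes at 1 or more in at least 2 (FPKM) or 3 (RPKM) libraries, with Benjamini-Hochberg adjustment over all genes tested. Low values gave whole reads within a tolerance of 0.01 for 30078 of 30078 genes above 0 in the FPKM table and 32932 of 32935 in the RPKM table. Limma-voom on those reads, chosen after the data were seen, called 3280 genes higher and 3802 lower in KO DMSO. Tables and figures used Python 3.11.15, numpy 2.4.6, pandas 2.3.3 and matplotlib 3.10.9. The code of the fit was also run on simulated reads with the same dispersion set for every gene, which does not test the spread of these libraries. Replicate numbers of KO and WT in DMSO gave no sign of pairing the libraries, which 2 libraries per group cannot exclude. The main fit used no replicate block. Alternatives were another pseudocount, other filters, median centring, a replicate block, a fit of only the libraries compared and each library left out.

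The genes named are the ANP32 and H2A.Z genes, the 12 largest rises and falls with a mean of at least 5 FPKM in the higher group and no overlap, up to 4 called members per direction and up to 3 abundant uncalled members of each list, the 4 most abundant called genes per direction, and up to 6 per direction by interaction with DAC. Predicted genes, clones, small RNAs and pseudogenes were left out of the largest rises and falls and of the choice by interaction. A few other list members are named for their role and were chosen after their values were seen. Members and lists were chosen with earlier results of these data known, so the counts over lists are descriptions. A few list members are not reported here by name, though the counts include them.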

Additional observations from a re-analysis of the deposited data

Results flagged for a closer look

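The KO minus WT difference was compared between DMSO and DAC with limma. The value tested was the difference in DMSO minus that in DAC on the log2 scale. The genes named here are a selection from those where that comparison passed. It passed as higher for 1928 genes and as lower for 2032. Among the ANP32 genes it passed for Anp32a, at 0.33. Of the genes with the largest rises in DMSO, Lrrn4, at 4.45, and Plxna4, at 4.45, were among those with the largest such differences. The rise of both was therefore larger in DMSO. Of the genes with the largest falls, those named by the same choice were Xist, at −4.44, Penk, at −2.63, Npnt, at −2.33, and Slc24a3, at −2.13. Their fall was larger in DMSO. Whether the comparison passed for the remaining genes with the largest rises and falls is not given here. The other genes with the largest such differences were C3, a complement component, at 4.83, the retinoic acid synthesis gene Aldh1a2 at 4.31, the R-spondin gene Rspo1 at 4.26 and the class I gene H2-Q6 at 4.09. In the opposite direction they were Aqp1, a water channel, at −2.35 and Vcan, versican, at −2.14. What sets the KO DMSO libraries apart from the KO DAC libraries beside the drug was not tested.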

How the results depend on the processing

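For KO against WT in DMSO, leaving out 1 library at a time gave 2434 to 2548 genes higher and 2740 to 2912 lower, and under DAC 1305 to 1755 and 1277 to 2141. For the difference between DMSO and DAC these ranges were 1436 to 1992 higher and 1345 to 2036 lower, the lowest value, against 2032, being that without KO DMSO replicate 1. With NT siRNA they were 2740 to 2875 higher and 4436 to 5415 lower, and a filter at 5 gave 1985 higher against 3004. Median centring moved the NT split to 4288 higher and 3780 lower. With the replicate number as a block the counts were 2976 and 3484 in DMSO, 1441 and 1510 under DAC, 1651 and 1616 for the difference between them, and 3040 and 5316 with NT siRNA. With 2 pairs of libraries in DMSO the deviations correlated at 0.005, so the numbers gave no sign of a pairing. Of 276 named genes that passed in DMSO, 9 lost the call under at least 1 alternative and no named gene changed sign with a call. Many of them were named as the largest changes of their lists, so this share does not stand for all genes that passed. A filter at 5 FPKM left 4 of the 7 falls of Hox cluster A, 5 of the 8 rises of junction genes, 2 of 6 rises and 6 of 10 falls of Wnt genes, 5 of 8 retinoic acid rises and 6 of 10 TGF-beta falls, since fewer genes were tested. Fitting only the 4 DMSO libraries gave 5 falls against 2 in the ANP32 and H2A.Z list and 5 against 3 in the stress list. At this depth a gene of 1 kb needs a few reads to reach 0.1 FPKM, so levels under it rest on few reads.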
